A study of Caenorhabditis elegans with 2 samples.

Results

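The sites described here are the places inside introns of autosomal genes where the homeobox protein CEH-82 was found in Caenorhabditis elegans larvae by ChIP-seq, the sequencing of DNA recovered with the protein. A peak of the authors' optimal list on ce11 was counted when its summit lay in a gene body, in no exon, and outside every promoter window, drawn from 1000 bp before to 200 bp after each transcript's 5' end in the Ensembl annotation of WBcel235, the same assembly. Of 3913 optimal peaks, 3214 lay on autosomes, and 257 of these were intronic by this rule. The other autosomal peaks were 2535 in promoter windows, 393 between genes and 29 in exons. The larvae were of the L1 stage and mixed sex, taken whole from strain OP212, with the genotype unc-119(ed3) III; ddEx58. The tagged protein, eGFP-CEH-82, came from ddEx58, named in the labels as an extrachromosomal array, and the labels do not say what else it carries. There were 2 biological replicates in 1 group, with no second condition, and both were called against the same control alignment. Whole larvae mix all tissues, so the cells in which a site was bound are unknown.

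Homeobox proteins bind DNA through a homeodomain and act as regulators of transcription, many of them in the specification of nerve cells and body regions of the worm. Most introns of C. elegans are short, and the long ones, often the first, are where enhancers and the promoters of shorter transcripts are commonly found. A single worm gene may thus have several 5' ends, with some lying inside the introns of its longer transcripts.

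The sequences around the summits of 8 of the strongest sites are shown, since short repeats of G and A and a second short sequence recurred in them. Each is 151 bases of the RefSeq genome sequence of WBcel235 (ce11), centred on the summit and written 5' to 3'. Capitals mark GAGAGA and CTGCGTCTC on either strand, so that TCTCTC and GAGACGCAG are capital as well.
Y111B2A.12, chrIII:12612589-12612739, plus strand: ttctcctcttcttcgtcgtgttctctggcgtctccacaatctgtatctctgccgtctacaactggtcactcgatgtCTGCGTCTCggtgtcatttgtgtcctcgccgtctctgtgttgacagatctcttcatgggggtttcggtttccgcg
Y62E10A.13, chrIV:13395348-13395498, plus strand: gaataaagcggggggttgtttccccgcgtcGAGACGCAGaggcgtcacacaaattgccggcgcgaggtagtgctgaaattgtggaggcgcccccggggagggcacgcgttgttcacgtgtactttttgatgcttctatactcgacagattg
unc-119, chrIII:10905265-10905415, plus strand: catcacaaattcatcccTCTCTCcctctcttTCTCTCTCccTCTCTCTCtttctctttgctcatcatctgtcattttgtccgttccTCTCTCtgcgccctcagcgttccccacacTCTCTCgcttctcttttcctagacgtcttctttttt
epg-9, chrIV:2602106-2602256, plus strand: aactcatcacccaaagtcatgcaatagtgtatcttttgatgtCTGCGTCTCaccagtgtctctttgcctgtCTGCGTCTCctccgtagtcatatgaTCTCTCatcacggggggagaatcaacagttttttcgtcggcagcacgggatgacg
zfp-1, chrIII:8795858-8796008, plus strand: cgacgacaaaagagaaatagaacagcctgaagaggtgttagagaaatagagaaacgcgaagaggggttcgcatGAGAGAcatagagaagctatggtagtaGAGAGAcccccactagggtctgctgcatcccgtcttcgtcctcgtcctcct
mdt-26, chrII:5661864-5662014, plus strand: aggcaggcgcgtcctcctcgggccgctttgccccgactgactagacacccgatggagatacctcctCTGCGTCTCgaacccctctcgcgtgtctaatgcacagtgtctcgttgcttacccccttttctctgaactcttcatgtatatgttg
pqn-41, chrIII:1925270-1925420, plus strand: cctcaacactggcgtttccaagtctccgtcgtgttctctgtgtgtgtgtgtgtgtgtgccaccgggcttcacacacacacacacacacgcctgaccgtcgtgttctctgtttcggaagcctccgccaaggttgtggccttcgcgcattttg
nhr-19, chrII:9603530-9603680, plus strand: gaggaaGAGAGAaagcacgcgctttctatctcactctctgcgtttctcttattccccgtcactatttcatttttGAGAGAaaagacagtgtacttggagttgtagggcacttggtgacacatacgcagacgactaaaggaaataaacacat
The unc-119 window held a long run of C and T with several copies of TCTCTC, and the zfp-1 and nhr-19 windows each held 2 copies of GAGAGA. CTGCGTCTC stood near the summit of Y111B2A.12 and mdt-26, in 2 copies at epg-9, and on the minus strand at Y62E10A.13. The pqn-41 window had neither in the bases printed, but had CTGCGTCTC further out, within 100 bp of the summit.

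Signal values are those the authors' caller gave each peak and were read only within a list. The strongest intronic site lay in intron 4 of 7 of Y111B2A.12 on chromosome III (12612586 to 12612716), with a signal of 241 in the optimal list, 127 in the list of replicate 1 and 109 in that of replicate 2. A site in intron 1 of 3 of Y62E10A.13 on chromosome IV (13395361 to 13395469) had 191, with 111 and 78.5 in the replicates. The T28F4.1 site, in intron 1 of 3 on chromosome I (7475262 to 7475414), had 184, with 101 and 81.8. These 3 sites held the 3 highest signals of replicate 2 among the intronic sites, and replicate 1 was higher than replicate 2 at each on its own scale. The unc-119 site (III, 10905210 to 10905469, intron 1 of 4) followed with 180, and with 113 and 65.5 in the replicates. unc-119, which encodes a lipid-binding chaperone needed by neurons, is also the gene mutated in the strain. A second site in the same intron, 1925 bp away, had 45.6, with 24.4 and 21.4. Whether the mutation or the transgene had a part in these 2 peaks was not tested.

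Next came epg-9, an autophagy gene, with 160 (IV, 2602051 to 2602310, replicates 104 and 61.9), and zfp-1, which encodes a chromatin protein related to AF10, with 155 (III, 8795803 to 8796062, replicates 95.8 and 61.8). mdt-26, a subunit gene of Mediator, the complex that links regulators to RNA polymerase II, had 153 (II, 5661809 to 5662068, replicates 101 and 57). Its intron was only 386 bp long, against a median of 4476 bp over all 257 sites. pqn-41 had 148 (III, 1925215 to 1925474, intron 14 of 21, replicates 102 and 46.9). mef-2, a gene of the MADS-box family of transcription factors, had 137 (I, 9097612 to 9097871, replicates 98.6 and 38.2), and nhr-19, of the nuclear hormone receptor family, had 129 (II, 9603475 to 9603734, replicates 77.8 and 52.8). The strongest site of chromosome V lay in Y43F8B.2 (19529211 to 19529470), also at 129, with 85.1 and 51.6. All these sites were in the top lists of both replicates. The top list of a replicate is its 3913 peaks of highest signal, as many as the optimal list holds.

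The rest of the 25 strongest ran from 124 at lron-13 down to 96.5 at gei-4. They included genes of signalling kinases, namely mpk-1 (ERK) at 117, dlk-1, a kinase known for axon regeneration, at 111, and mnk-1, named for kinases that act downstream of MAP kinases, at 102. aakg-1, a regulatory subunit of AMP-activated kinase, had 104 and spop-1 had 103. dmd-6, of the doublesex family of transcription factors, had 102, and saeg-1 had 98.3. A pseudogene without a symbol (WBGene00012975) had 106, and Y56A3A.7 had 103. pqn-41 and zfp-1 each appeared more than once, with further sites at 123 and 105 in pqn-41 and 119 in zfp-1. Chromosome III held 14 of the 25.

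Over all 257 sites the signal ran from 27.8 to 241 with a median of 44.4. In replicate 1 the values ran from 11.6 to 127 (median 26.5) and in replicate 2 from 4.49 to 109 (median 18.2). Across the 255 sites with a peak in both full lists, the replicates' signals had a Spearman rho of 0.539. This is a correlation across sites of 1 genome with a shared control, not across samples. The optimal list was thresholded by the irreproducible discovery rate, so agreement of the replicates at these sites is not independent of their choice. 1 site in miz-1 had no peak in replicate 2, and 1 of the 2 sites in gei-4, at 31.2 in the optimal list, had none in replicate 1. The top list of replicate 1 held 221 sites, that of replicate 2 held 208, both held 178 and neither held 6.

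**Figure D1:**
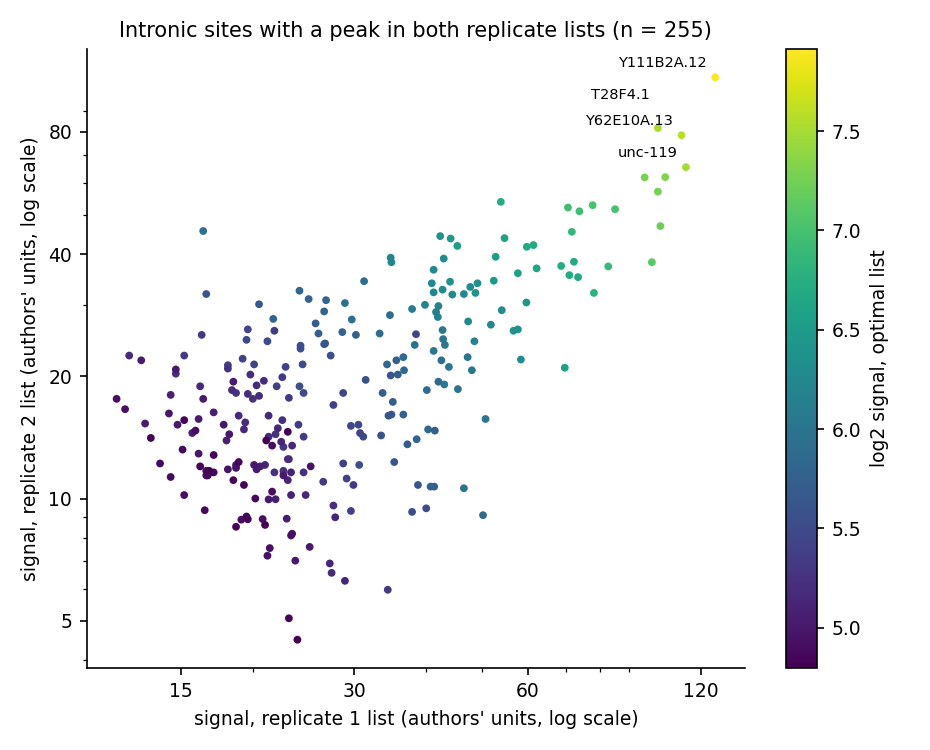
Signal of the 255 intronic sites with a peak in both replicate lists, replicate 1 on the horizontal and replicate 2 on the vertical axis (both log scales, authors' units), coloured by log2 signal in the optimal list, with the 4 strongest sites named. Sites strong in one replicate were mostly strong in the other, while the points of weaker sites scatter widely. All come from a list thresholded by the irreproducible discovery rate.

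Intronic sites were weaker than promoter peaks. Of the 257, 31 (12.1%) were among the strongest 25% of the autosomal optimal peaks, against 707 of 2535 promoter peaks (27.9%; odds ratio 0.355, adjusted p = 2.19e-08, two-sided Fisher's exact test, adjusted over 6 comparisons). The median signal of promoter peaks was 59. The share in the top lists of both replicates was also lower, at 69.3% against 82.4% (odds ratio 0.48, adjusted p = 2.71e-06, Fisher's exact test). A top list is cut by signal, so this share is not independent of the difference in signal. With the full replicate lists, which each held 256 of the 257 sites, the difference did not pass (odds ratio 0.404, adjusted p = 0.35, Fisher's exact test). Peaks between genes had a median of 51.2, and 15% of them were in the strongest 25% (odds ratio 0.777, adjusted p = 0.299) and 75.3% in both top lists (odds ratio 0.738, adjusted p = 0.125, both Fisher's exact test). Neither difference from intergenic peaks passed the test as set. With promoter windows of 500 bp upstream the difference in recovery passed (odds ratio 0.722, adjusted p = 0.0426, Fisher's exact test). That in signal passed when autosomal optimal peaks above their median signal counted as strong (odds ratio 0.624, adjusted p = 0.00628, Fisher's exact test). It turned direction when only the 1956 strongest optimal peaks were kept (odds ratio 1.01). Peaks of 1 experiment do not replicate each other, and the p-values are statements about these lists alone. The q-value of the caller has a ceiling, which 192 of the intronic sites (74.7%) and 85.4% of the promoter peaks reached.

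The sites were spread unevenly over the autosomes. Chromosome III held 84 (32.7%), with 20.6% of the intron bases that could hold a site, which is 20.1 sites per Mb of such bases. Chromosome V held 37 with 22.5% of the bases, or 8.12 per Mb, and chromosomes I, II and IV held 50, 46 and 40. Of the optimal peaks of chromosome III, 11.7% were intronic, against 6.46% to 8.03% on the other autosomes. The share of chromosome III was 29.5% in the top list of replicate 1 and 30.9% in that of replicate 2, so it was the highest in both. The genotype names unc-119(ed3) on this chromosome, and without the 2 unc-119 sites it would hold 82. The replicates' top lists, taken by the same rule, gave 261 and 259 autosomal intronic sites (260 ± 1.41, SD, n = 2), or 8.12% ± 0.0244 of their autosomal peaks.

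**Figure D2:**
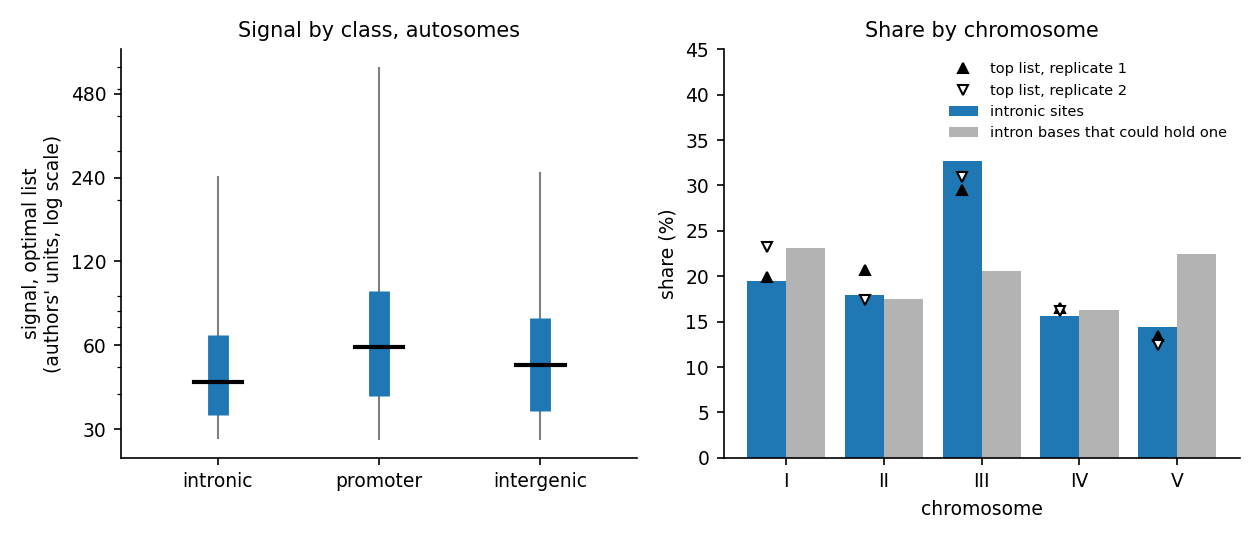
Left, signal in the optimal list (authors' units, log scale) of intronic, promoter and intergenic autosomal peaks, with the median (black line), quartiles (blue bar) and range (grey line). Right, share of the 257 sites (blue) and of the intron bases that could hold one (grey) on each autosome, with the shares in the top list of each replicate as triangles; chromosome III stands at 32.7% of sites with 20.6% of bases.

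Within their hosts the sites lay mostly in long introns, and often in the first. Intron numbers refer to the longest transcript of the host whose intron covers the summit. The intron was over 2000 bp long for 200 of 257 sites (77.8%), against 978 of 2159 weaker intronic peaks (45.3%), which are the autosomal peaks of the pooled list that pass the same rule but are not in the optimal list (odds ratio 4.24, adjusted p = 6.02e-23, Fisher's exact test). By its name the pooled list takes in background too, so some of these weaker peaks may not be bound sites. How many was not tested, so comparisons with them need not set strong against weak binding. Introns over 2000 bp hold 26.6% of the bases available. In the replicates' top lists the share was 78.3% ± 0.698 (SD, n = 2). The median intron was 4476 bp long for the sites and 1609 bp for the weaker peaks. The first intron held 94 sites (36.6%) against 24.6% of the weaker peaks (odds ratio 1.77, adjusted p = 9.07e-05, Fisher's exact test) and 19.5% of bases, and 35.8% ± 0.738 in the replicates. Within introns over 2000 bp the first intron held 42% of the sites and 35.2% of the weaker peaks. Among the 1956 strongest optimal peaks, of which 85 were intronic, the first intron call was lost (odds ratio 1.21, adjusted p = 0.532, Fisher's exact test). Intron 2 held 52 sites and intron 3 held 24, while 7 were in a last intron.

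Most sites lay ahead of an alternative start of their own host. Of the 254 sites whose host encodes a protein, 184 (72.4%) lay before the start codon of at least 1 transcript, against 39.8% of weaker intronic peaks (odds ratio 3.97, adjusted p = 9.65e-23, Fisher's exact test, one of 6 comparisons added after these data were seen). For 26 of them this was so for every transcript, and for 158 for some only. An annotated 5' end of the same gene lay further on for 183 of 257 sites (71.2%), against 38.8% (odds ratio 3.9, adjusted p = 9.65e-23, Fisher's exact test), and the nearest of them was a median of 2593 bp away. Within introns over 2000 bp the shares were closer, at 83.2% against 72.5% for the start codon and 81.5% against 71.4% for the 5' end. At pqn-41, all 4 sites lay in intron 14 of the longest transcript, between 15514 and 20676 bp from its 5' end, and the 2 nearest the next start were 2326 and 1037 bp from a 5' end of pqn-41 itself.

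The median site was 3710 bp from the outermost 5' end of its host, and 98 were over 5000 bp away. The nearest 5' end of any gene was a median of 1355 bp away and belonged to another gene for 67 sites. The 3 sites farthest from any 5' end were in tra-1, which encodes the GLI-type regulator of sex determination, at 9416 bp (III, signal 50.9, replicates 37.1 and 13.6), in C35B1.2 at 7092 bp (IV, signal 78, replicates 42.9 and 39) and in daf-5 at 6783 bp (II, signal 48.9, replicates 34.8 and 16.1). The longest introns with a site were those of Y48C3A.5 (19927 bp, signal 32.3), of crh-1, the worm's CREB gene (18615 bp, signal 41.9), and of hmr-1, its classical cadherin gene (18310 bp, signal 54.7). Only 7 of the 257 summits were within 100 bp of a splice site. Soft-masked bases, those in lower case in the RefSeq genome sequence, held 55 of the summits (21.4%) and made up 55.9% of the intron bases available. The sources used here do not say what the masking marks.

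**Figure D3:**
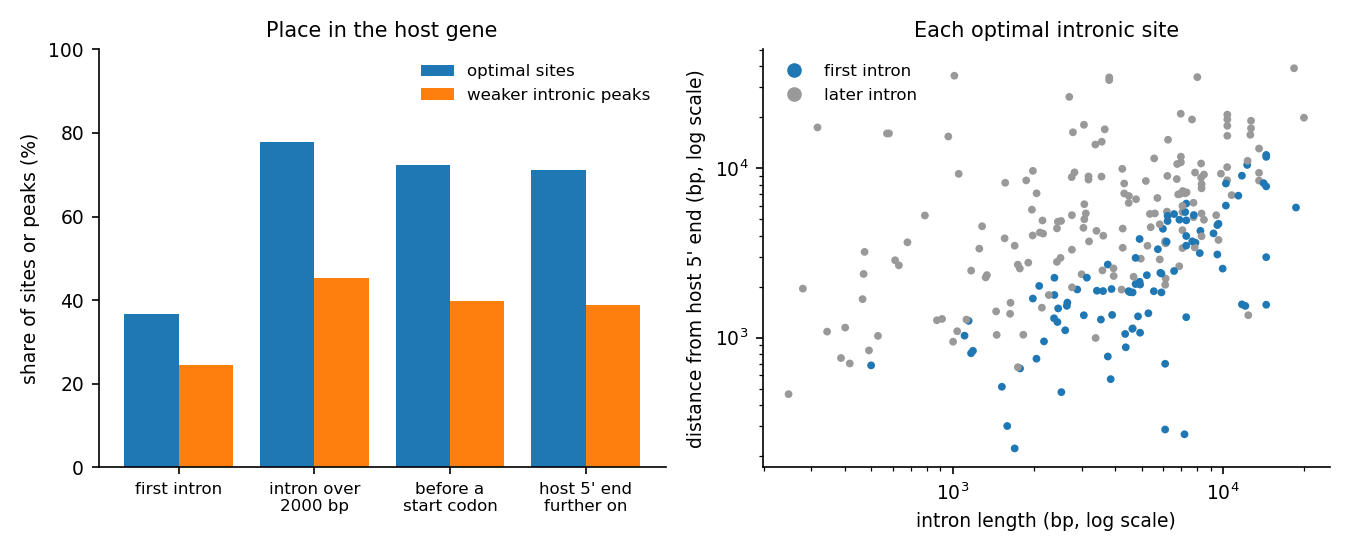
Left, share of the 257 sites (blue) and of weaker intronic peaks of the pooled list (orange) in the first intron, in an intron over 2000 bp, before the start codon of at least 1 transcript (hosts with a coding sequence), and with a further 5' end of the host downstream. The weaker peaks may include background. Right, intron length and distance from the host's 5' end of each site (log scales, bp), with first introns in blue; 98 sites lie over 5000 bp from the host's 5' end.

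The 257 sites lay in 192 host genes, which are 1.24% of the 15496 autosomal genes with any intron base outside windows and exons. Hosts had a median of 5527.5 such bases, against 555 over all these genes, and genes with 5000 or more supplied 107 of the 192 hosts. In that length class 12.6% of genes were hosts, against 3.14% of genes with 2000 to 4999 bases and 0.0828% of those under 500. Protein-coding hosts held 254 sites, pseudogenes 2 and a long intergenic non-coding RNA gene, linc-129, 1, at a signal of 75 (replicates 41.2 and 32.2).

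More than 1 site was found in 43 hosts, which together held 108 sites, and 11 hosts had 3 or more. daf-5, the Sno/Ski gene of the dauer TGF-beta pathway, had 6, at signals of 27.9 to 56.6, spread from 1563 to 15363 bp from its 5' end. Replicate 1 gave these 6 sites 13 to 34.8 and replicate 2 gave them 14.1 to 32.5, and 4 of the 6 were in both top lists. ncl-1, which encodes a TRIM-NHL protein that limits nucleolar size, had 6 at 28.7 to 55.5, of which 4 were in both top lists and 5 were in intron 1. The ncl-1 sites had 12.8 to 36.5 in replicate 1 and 5.07 to 31 in replicate 2.

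Of the hosts with 4 sites, pqn-41 had the highest signal at its weakest site. Its sites had 87.3 to 148, with 53.9 to 102 in replicate 1 and 30.4 to 53.8 in replicate 2, and all 4 were in both top lists. The 4 in zfp-1, in introns 4 and 9, had 64.9 to 155 and were also all in both top lists. In Y111B2A.12 the 241 of the first site stood far above its neighbours in the same intron, at 31.7 to 44.6. unc-43, which encodes CaMKII, had 4 sites within 4081 bp of intron 2, at 48 to 68.9. The 4 in mpz-1, a gene of a protein with many PDZ domains, were at 29.9 to 40.3 and as far as 34284 bp from its 5' end, and 2 of them were in both top lists.

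Of the hosts with 3 sites, aakg-1 had 35 to 104, Y56A3A.7 had 36.2 to 103, hlh-30 had 29.8 to 92.1 and gcy-28 had 28.7 to 82.4. hlh-30 is the worm's TFEB gene, a regulator of lysosome and autophagy genes, and gcy-28 encodes a receptor guanylyl cyclase. In these hosts the strongest site had more than the median of 44.4 and the weakest less. Another optimal summit of any class lay within 2000 bp of 103 of the 257 sites, and within 500 bp of 17.

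**Figure D4:**
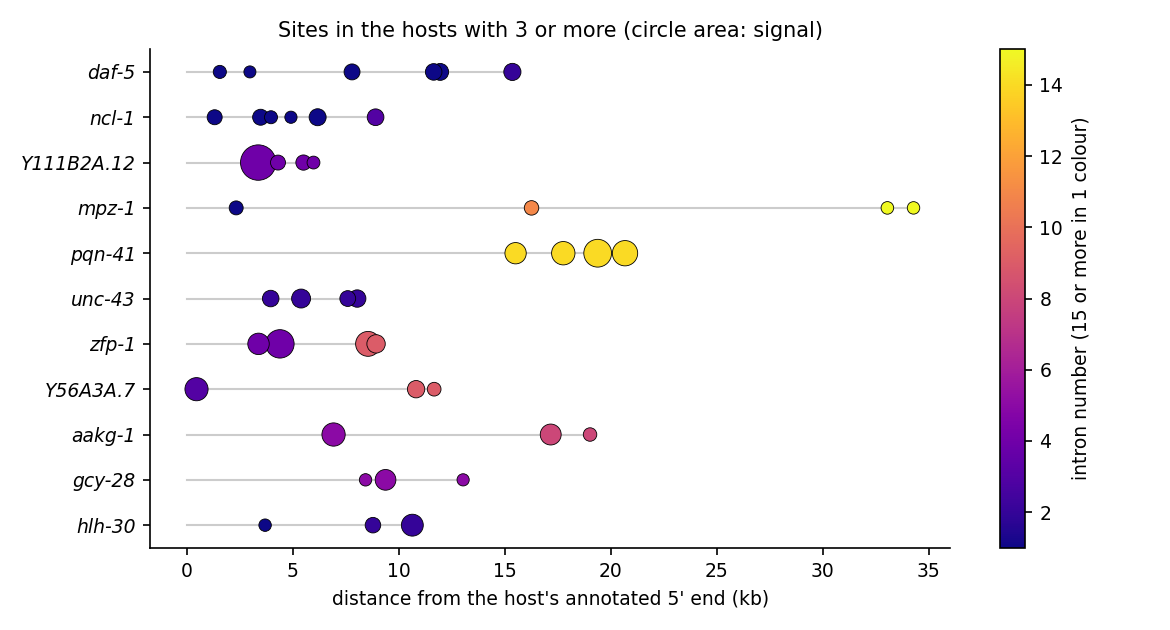
Sites in the 11 hosts with 3 or more, by distance from the host's annotated 5' end (kb); circle area is proportional to signal in the optimal list and colour gives the intron number. The pqn-41 sites lie together in 1 intron far from the 5' end, while the last mpz-1 site is 34284 bp from the 5' end.

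Many hosts also had a peak at a promoter. An optimal summit lay in an own promoter window of 69 of the 192 hosts (35.9%), where 14.5% of all eligible genes had one. In the replicates' top lists the share was 36.5% ± 0.0987 (SD, n = 2). Hosts had a mean of 3.79 annotated 5' ends, each with a window, and all eligible genes 1.49. In the class of 5000 or more eligible intron bases the means were 4.28 for hosts and 2.62 for other genes. Among genes with 5000 or more eligible intron bases, 34.6% of hosts and 28.8% of other genes had a bound promoter, and among those with 2000 to 4999 bases the shares were 39.3% and 19%. These differences were not tested. The strongest sites in hosts with no bound promoter were those of Y62E10A.13 (191), T28F4.1 (184), mef-2 (137), nhr-19 (129) and lron-13 (124). All 5 sites were in both replicates' top lists.

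Gene groups were made from name patterns, so a group can hold genes that its name does not describe, such as dlk-1, unc-119 and mdt-26. A gene could be counted in different groups, as cam-1 and egl-27 were. Counts are given beside the 1.24% of all eligible genes. They also stand beside the number of hosts that a group's members would give at the rates of the 4 length classes. Genes of G proteins, second messengers and kinases had 18 hosts of 169 (10.7%), where their lengths gave 6.69. Among these, mpk-1 had 117 (replicates 71.6 and 45.4), gcy-28 had 82.4 (42.3 and 44.3), par-1, a polarity kinase, had 76.9 (41.2 and 36.6) and pkc-1, a protein kinase C, had 74.8 (51.8 and 26.8). unc-43, let-363 (TOR) and cdk-5 were also hosts. Genes of synaptic vesicles and neurosecretion had 10 hosts of 80 (12.5%), where lengths gave 2.77. The strongest were dlk-1 with 111 (78.2 and 32.1), snt-3, a synaptotagmin gene, with 53.3 (30.2 and 25.3), ric-7 with 37.9 (20 and 17.6) and ida-1 with 36.8 (22.6 and 11.7), and unc-13, unc-64 (syntaxin) and unc-41 were among the others. Below snt-3 the synaptic hosts had at most 37.9, under the median of 44.4 over all sites.

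Wnt, TGF-beta and Notch pathway genes had 5 hosts of 75 (6.67%), where lengths gave 2.12. The Smad gene daf-14 of the dauer TGF-beta pathway (83.6, replicates 57.7 and 26.1) and daf-5 were hosts, with lag-1, the DNA-binding effector of Notch signalling, at 77.1 (54.1 and 29.1), the Ror receptor gene cam-1 at 33 (15.7 and 14.5) and the kinase gene lit-1. Genes of bHLH, T-box, GATA, SOX, FOX, zinc finger and some other transcription factors had 6 hosts of 103 (5.83%), where lengths gave 2.25. These were mef-2, hlh-30, daf-16 (the FOXO gene, 67.7), tra-1, egl-27 and klf-1. Chromatin genes had 6 of 124 (4.84%), where lengths gave 3.33, with zfp-1, mdt-26, phf-15 (82.4) and mdt-27 (81.7) the strongest. Their median signal of 82 was the highest of the groups.

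Nuclear hormone receptor genes had 4 hosts of 239 (1.67%), where lengths gave 1.75 hosts, with nhr-46 at 58.8 and nhr-88 at 54.2 after nhr-19. Metabolic genes had 5 hosts of 156 (3.21%), where lengths gave 2.26, with pygl-1, a glycogen phosphorylase gene, at 89.2 and acs-13 at 80.1. The next 3 groups had counts closer to the number their lengths gave. Adhesion and axon guidance genes had 6 hosts of 101 (5.94%), where lengths gave 5.13, with unc-33 at 72.5 and unc-76 at 53.9 after unc-119. Cytoskeleton genes had 4 of 93 (where lengths gave 3.65), with the filamin gene fln-1 at 76.5 and the tropomyosin gene lev-11 at 60.1. RNA-binding genes had 3 of 114 (where lengths gave 2.4), larp-1 at 61.9, unc-75 at 32.3 and msi-1 at 28.6.

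Of the groups left, ion channel and receptor genes were the furthest below the number of hosts their lengths gave. The others differed from it by less, and no difference was tested. Ion channel and receptor genes had 3 hosts of 247 (1.21%), where lengths gave 7.61, and these were the weak sites of nca-2 (37.6), avr-14 (32.3) and gar-2 (28.4). Membrane transport genes were close to the number their lengths gave, with 6 of 292 (2.05%) where lengths gave 6.26, led by epg-9 and slc-36.4 (75.5). Ubiquitin and proteasome genes had 2 of 398 (0.503%), where lengths gave 3.61, ulp-4 at 58.8 and cyld-1 at 30.3. Ribosomal, translation and tRNA synthetase genes had 0 of 131 (where lengths gave 0.998). Among homeobox genes only lin-11, a LIM homeobox gene of neurons and vulva, was a host, 1 of 74 (1.35%), where lengths gave 1.69, at 37.5 in intron 7 of 9 (replicates 22.5 and 15.6).

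The summits were marked by short repeats of G and A. GAGAGA, on either strand, was present within 100 bp of 161 of 257 summits (62.6%), against 26 (10.1%) in equally long flanking sequence, 300 to 400 bp from the summit (adjusted p = 1.37e-28, exact McNemar test over sites, adjusted over 12 sequences). The 12 sequences were chosen with earlier results of these data known, so the p-value is not that of a sequence picked blind. By the replicates' top lists the ratio of summits to flanks was 5.67 ± 0.157 (SD, n = 2). Promoter peaks had GAGAGA less often, in 41.3% (odds ratio 2.38, adjusted p = 7.41e-10, Fisher's exact test), and intergenic peaks more often, in 73% (odds ratio 0.619, adjusted p = 0.00672, one of the 6 added comparisons). Weaker intronic peaks had it in 20.9% (odds ratio 6.33, adjusted p = 1.55e-40, Fisher's exact test), or in 31.2% where the intron was over 2000 bp, against 65% of the sites in such introns.

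In windows that held it, the repeat was mostly within 50 bp of the summit. It was in 71.9% of the 64 strongest sites and 51.6% of the 64 weakest. It ranged from 56% of sites on chromosome I to 67.5% on chromosome IV, and was in 61.7% of first-intron and 63.2% of later-intron sites. The windows reach only 100 bp from the summit, and such distances are not given for other peaks. In 121 of the 161 windows (75.2%) the nearest copy was centred within 50 bp of the summit. It lay on the strand opposite to the host's transcript alone in 85 windows, on the transcript's strand alone in 41 and on both in 35. The host's transcript thus read TCTCTC more often than GAGAGA, and the same held in weaker intronic peaks, with 277 against 139. Unbroken GA or CT repeats of 12 or more bases were in 27 sites (10.5%), against 3.71% of promoter peaks and 0.778% of flanks.

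Of all 2080 6-mers counted with their reverse complements, 247 (11.9%) were more common at the summits than in the flanks and 215 (10.3%) were rarer (adjusted p under 0.05, exact McNemar test). Among the more common were AGAGAG, in 55.6% of summits and 8.95% of flanks, CGTCTC, in 39.7% and 5.45% (adjusted p = 4.08e-18), and ACGCAG, in 31.1% and 3.89% (adjusted p = 7.76e-15, both exact McNemar test). The last of these, GACGCA (27.6%), AGACGC (30%) and CGTCTC overlap to spell CTGCGTCTC or its complement. This 9-base sequence, put together after the counts were seen and so given with no test, was in 51 sites (19.8%), 2 flanks, 14% of promoter peaks, 24.7% of intergenic peaks and 2.87% of weaker intronic peaks. It was in 32.8% of the 64 strongest sites and 12.5% of the 64 weakest. Of the 51 sites 39 also had GAGAGA, and 84 of the 257 sites had neither.

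Base composition moved with these counts. The median GC content was 45.8% at the summits and 35.3% in the flanks, and was higher at the summit at 238 of 257 sites. Intergenic peaks had 45.8% and promoter peaks 42.8%. Of the 247 more common 6-mers, 111 contain CG and 0 are made of A and T alone, whereas 34 of the 36 6-mers made of A and T alone were among the rarer. How far composition accounts for single 6-mers was not tested.

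**Figure D5:**
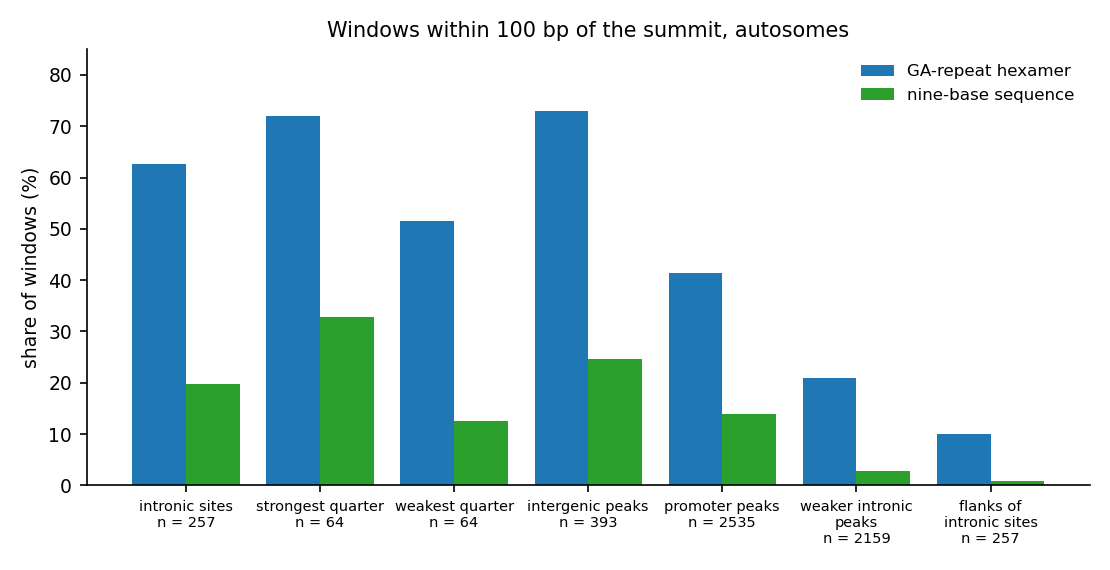
Share of windows within 100 bp of the summit that hold the GA-repeat hexamer (blue) or the 9-base sequence (green), on either strand, in the 257 intronic sites, the 64 strongest and 64 weakest of them, intergenic, promoter and weaker intronic peaks, and in the flanks of the sites. Both are higher in the strongest sites (71.9% and 32.8%) than in the weakest (51.6% and 12.5%).

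The core sequence that many homeodomains prefer was not gathered at the summits. TAATTA was in 7 summits (2.72%) and 30 flanks (11.7%; adjusted p = 0.000764), and the shorter TAAT in 51.4% and 90.3% (adjusted p = 1e-20, both exact McNemar test). In the top list of replicate 2 alone TAATTA did not pass (adjusted p = 0.459, exact McNemar test). TAATTA was also less frequent than in weaker intronic peaks, at 7.55% (odds ratio 0.343, adjusted p = 0.00408), while the differences from promoter peaks (4.81%, odds ratio 0.554, adjusted p = 0.329) and from intergenic peaks (1.02%, odds ratio 2.72, adjusted p = 0.123) did not pass Fisher's exact test. The 7 sites with TAATTA were led by dlk-1 at a signal of 111, and the others had 30.9 to 50. TGATAA, which factors of gut genes recognise, was rarer at summits (5.84% against 15.2%, adjusted p = 0.00215, exact McNemar test). GCGCAG was more common (12.1% against 5.06%, adjusted p = 0.0154), though not with promoter windows of 2000 bp upstream (adjusted p = 0.36) or among the 1956 strongest optimal peaks (adjusted p = 0.0741, exact McNemar test). CACGTG, the E-box that factors such as HLH-30 prefer, was in 7.39% against 2.72% and did not pass (adjusted p = 0.0579, exact McNemar test). Of the other sequences searched, ATATAT was in 6.61% of summits and 11.3% of flanks, CAGCTG in 3.89% of each, GTAAACA in 1.95% and 3.11%, TGACTCA in 1 and 3 windows, TTAATTAA in 0 and 4, and TTGCGCAA in 2 and 0, and none of these passed. ATATAT did pass in the top list of replicate 1 alone (adjusted p = 0.0132, exact McNemar test). A match describes letters in a window and does not show that a factor binds there.

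The intronic sites closest to it on the upstream side were 1006 bp from a 5' end of egl-27 (signal 36.2) and 1008 bp from one of M01F1.9 (29.4), and the peaks just within it were 1000 bp from gsa-1 (30.2) and 997 bp from F48C1.3 (81.2). On the downstream side the closest sites were 206 bp from F28E10.7 (37.6) and 222 bp from nhr-88 (54.2), and the peaks just within were 177 bp from T05A12.7 (87.3) and 176 bp from the piRNA gene 21ur-15344 (55.9). Some intronic peaks of the replicates' top lists overlapped no optimal peak, 39 of 261 in replicate 1 and 51 of 259 in replicate 2. The strongest were in mix-1 (24.1 on the scale of replicate 1), pde-6 (23) and dhhc-3 (22.8), and in mbk-2 (18.4 on the scale of replicate 2), kin-1 (17.7) and lsy-22 (17.2). The best rank among them was 2803 of 24014 peaks in replicate 1 and 2422 of 30000 in replicate 2.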

How the data were processed

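Peaks were taken from the lists on ce11 deposited by the authors (1 per replicate, 1 called on both replicates pooled and 1 optimal list thresholded by the irreproducible discovery rate), in which each peak has a signal value and a −log10 q-value from the authors' caller, and a summit. Per the read-me files deposited with them, the authors made the optimal list out of the lists of the pool and of each replicate. The name of the pooled list says that background was kept in it, and its background was not separated here. The sources used here do not name the aligner, the caller or the threshold. Depth is unknown, so no interval that needs it is given. The ce10 lists were not used here. Nothing in the labels beyond the replicate numbers says how the replicates were raised, and their spread is that of 2 samples.

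Genes came from Ensembl release 115 and sequence from the RefSeq genome of WBcel235. A summit in introns of several genes was given to the shortest gene, and an intron number to the longest transcript. An overlap was 1 shared bp or more. Shares were compared with two-sided Fisher's exact tests (scipy 1.17.1, Python 3.11.15) and short sequences at summits and flanks with exact McNemar tests, with Benjamini-Hochberg adjustment within each family and a threshold of 0.05. The search over 6-mers was tested on simulated windows of 257 sites. It recovered 1 of 10 6-mers planted at 20 sites and 9 of 10 planted at 60. A 6-mer added at few sites would thus mostly be missed. The search also called 10 that were not planted, so a called 6-mer need not be one that was added. A gene counted as eligible when it had at least 1 intron base outside windows and exons. The length classes of eligible intron bases were under 500, 500 to 1999, 2000 to 4999, and 5000 or more.

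The sites, gene groups and sequences were chosen with earlier results of these data known. Named sites are the 25 strongest, the strongest of each autosome, hosts of 3 or more, up to 4 hosts per gene group, the 3 farthest from a 5' end and in the longest introns, 2 on each side of each window edge, the 3 strongest of each replicate outside the optimal list, and the 5 strongest in hosts without a bound promoter. Other hosts in gene groups, the unc-119 sites, linc-129, miz-1 and gei-4 sites without a replicate peak, and the sites with TAATTA were named after their values were seen. Alternatives were promoter windows of 500 and 2000 bp, peak midpoints, protein-coding transcripts only, the 1956 strongest optimal peaks, each replicate's top list, other overlaps, intron lengths and sequence windows. A check against RefSeq transcripts was added after seeing the data.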

Additional observations from a re-analysis of the deposited data

How the results depend on the processing

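Of 74 alternatives for the main results, 55 kept the direction and the side of the threshold or the size. Sizes counted as kept included 334 intronic sites with promoter windows of 500 bp upstream, against 257. Sizes counted as changed included 36.6% of hosts with a bound promoter, against 35.9%. The number of intronic sites fell to 159 with promoter windows of 2000 bp upstream and to 85 among the 1956 strongest optimal peaks (the strong list), and was 440 with the windows and exons of protein-coding genes alone. RefSeq transcripts, a check chosen after seeing the data, left all 257 sites intronic. With full replicate lists, which hold nearly every site, the odds ratio of recovery against promoter peaks was 0.404 and no longer passed (adjusted p = 0.35, Fisher's exact test). Against intergenic peaks it was 0.722 and passed with windows of 500 bp (adjusted p = 0.0426, Fisher's exact test). The odds ratio of strong signal against intergenic peaks was 1.01 in the strong list, a change of direction (adjusted p = 1, Fisher's exact test). It was 0.624 when autosomal optimal peaks above their median signal, not the strongest 25%, counted as strong (adjusted p = 0.00628, Fisher's exact test). The odds ratio of the first intron was 1.21 in the strong list (adjusted p = 0.532, Fisher's exact test), which has fewer sites. The short sequences that differed from promoter peaks were 2, and 1 with windows of 2000 bp upstream, in the strong list, or within 50 bp of the summit. The 6-mers called numbered 462, and 232 within 50 bp and 119 in the strong list. Hosts with a bound promoter were 27.2% with windows of 500 bp, 49.2% with 2000 bp, 33.4% with protein-coding genes alone, 26% in the strong list, and 36.5% to 36.6% in the top list of 1 replicate alone. Of 192 alternatives for single sequences, 181 kept the side of the threshold. In the others it changed, and TAATTA passed against promoter peaks with protein-coding genes alone (odds ratio 0.397, adjusted p = 0.0101, Fisher's exact test). Where a sequence did not pass, its direction could turn with the call unchanged. The odds ratio of TAATTA against promoter peaks was 0.554, but 1.05 in the top list of replicate 2 alone. GAGAGA kept its call under every alternative run for it. Where no cause is named, the cause was not tested. No paired analysis was possible because there is only 1 group. Without depth, the weakest sites' error cannot be stated.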
